A study of Homo sapiens with 6 samples.

Results

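The ephrin, semaphorin and plexin guidance genes are the ligands and receptors that cells use to read their neighbours and surroundings. The 46 genes were chosen by symbol from the families of ephrins, semaphorins, Eph receptors, plexins and neuropilins, and all 46 were found among the 64253 genes of the count tables. They comprised 25 ligands (7 ephrins and 18 semaphorins) and 21 receptors (11 Eph receptors, 8 plexins and 2 neuropilins). Transcripts were counted in PC-3, an established human prostate cancer cell line, in 3 samples of cells expressing a lentiviral shRNA against CdGAP (shCdGAP) and 3 samples expressing a scrambled control shRNA (shCon). The methods state puromycin selection for the depleted cells only. CdGAP, encoded by ARHGAP31, switches off the small GTPases Rac1 and Cdc42. The study asked which genes differ in expression between shCon and shCdGAP cells. The methods state that the PC-3 cells depleted of CdGAP were grown from single cells as clones, without saying so for the shCon cells, so that clonal differences and effects of the depletion cannot be told apart.

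Ephrins stay attached to the cell surface and bind Eph receptors, a family of receptor tyrosine kinases, on the cell next to them, and signals run into both cells. Semaphorins are secreted (class 3) or membrane-bound, and bind plexins, with the neuropilins as co-receptors for most secreted members. These families were first described in axon guidance, act on small GTPases and the actin cytoskeleton, and are studied in epithelial tumours for adhesion, migration and vessel growth.

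The libraries held between 33182796 and 43154039 counted reads. ARHGAP31 was counted 1072, 1181 and 926 times in shCdGAP and 2472, 2557 and 1923 times in shCon, a log2 fold change of -1.14. Replicate 2 of shCdGAP stood apart from replicates 1 and 3, with a chi-square per degree of freedom of 26.6 and 32.71 against them, compared with 2.579 to 6.891 for the other pairs within a group. Results that rest on this library are given with and without it. The epithelial markers KRT8, KRT18, KRT19 and EPCAM were read in every library, with summed levels of 944 to 1176 counts scaled to library size (CPM) in shCdGAP and 685 to 704 in shCon. The androgen-responsive luminal markers KLK3, KLK2 and TMPRSS2 had at most 2 reads, and CTNNA1, known to be lost in PC-3, had 25 to 63 reads.

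Of the 46 genes, 40 had enough reads to be tested, and 30 of these passed an adjusted p-value under 0.01 in edgeR's quasi-likelihood test with Benjamini-Hochberg adjustment, 15 higher and 15 lower in shCdGAP. That was 75% of the genes tested, against 46.2% of all 16439 genes tested. At an average log2 CPM of 3 or more, 23 of 30 guidance genes (76.7%) passed, against 54.0% of 10282 genes. A change of more than 2-fold, an absolute log2 fold change above 1, was reached by 14 of the 40 (35%), against 12.8% of all genes tested. These were 7 higher genes (8.56% of all genes) and 7 lower genes (4.19% of all genes). The 3 shCdGAP libraries lay wholly on one side of the 3 shCon libraries for 34 of the 40 genes, against 67.1% of all genes. The median log2 fold change was -0.08, against 0.0089 over all genes tested, with equal numbers in both directions. In bulk RNA, fewer cells expressing a gene and less of its RNA per cell cannot be told apart.

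Ligands and receptors were counted apart. Of the 21 ligands tested, 8 were higher (24.1% of all genes) and 6 lower (22.0% of all genes), and 9 of these 14 changed by more than 2-fold, with a median log2 fold change of 0.03 over the ligands tested. Of the 19 receptors tested, 7 were higher and 9 lower, and 5 of these 16 changed by more than 2-fold, with a median of -0.31. The difference between ligands and receptors was not itself tested. Without shCdGAP replicate 2, 9 ligands were higher and 9 lower, and 7 receptors were higher and 10 lower, while 10035 of all 16727 genes then tested (60%) were called in either direction.

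**Figure D1:**
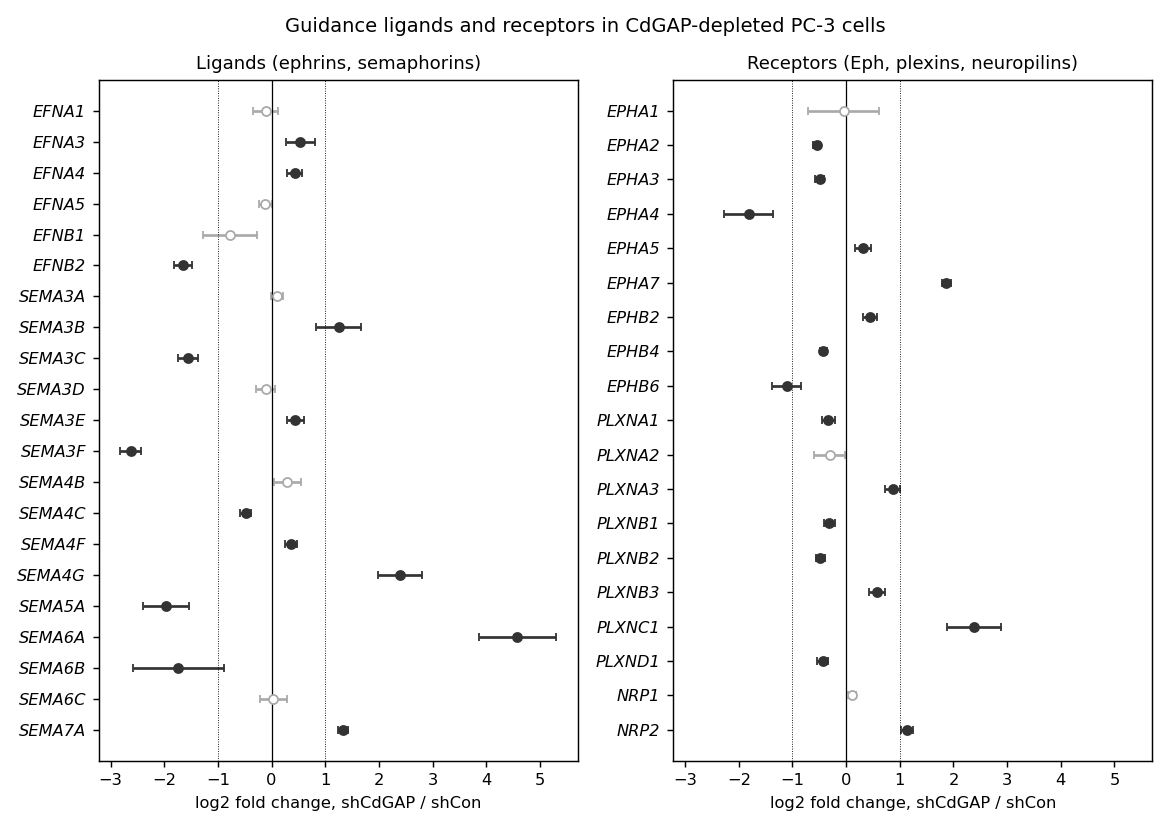
Log2 fold change of shCdGAP against shCon (horizontal axis) for the 21 ligands and 19 receptors tested. Bars are nominal 95% intervals, a normal multiple of the SE, and are narrower than the F test implies. Those of EFNA5, SEMA4B and PLXNA2, among others, leave out no change although these genes did not pass. Filled points passed an adjusted p under 0.01, open points did not, and dotted lines mark a 2-fold change; SEMA6A lies farthest to the right at 4.58 and SEMA3F farthest to the left at -2.62.

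Of the 6 ephrins tested, 2 rose and 1 fell, 50% in all, close to the 46.2% of all genes tested. The largest change was that of a B-type ligand. EFNB2 (chromosome 13 from 106489731 to 106535114, GRCh38), a transmembrane ligand of EPHB4 in vessels, stood at 16.3, 21.0 and 17.3 CPM in shCdGAP and at 56.7, 58.8 and 56.6 CPM in shCon. Every shCdGAP library lay far below every shCon library, a log2 fold change of -1.65 (SE 0.0859, edgeR adjusted p = 8.34e-07). EFNB1 (chromosome X from 68828997 to 68842147), the other B-type ligand on the list and the ephrin with the highest level per length, stood at 56.5, 97.1 and 52.1 CPM in shCdGAP and at 119, 120 and 115 CPM in shCon. All shCdGAP values were lower, but replicate 2 lay well above the other 2 libraries, and the log2 fold change of -0.78 (SE 0.255, edgeR adjusted p = 0.0464) did not pass. Without replicate 2 it was -1.13 (edgeR adjusted p = 2.92e-27).

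The A-type ephrins, which are held in the membrane by a lipid anchor, changed by less than 2-fold. EFNA3 rose by a log2 fold change of 0.54 and EFNA4 by 0.43 in edgeR's test, with adjusted p of 0.0085 and 0.00108. EFNA3 lost its call on removal of shCdGAP replicate 1 or of any shCon library, with an adjusted p of up to 0.0376 by edgeR. A neighbouring gene of the same strand, ENSG00000251246, shares 44.7% of the exon length of EFNA3 and 14.96% of that of EFNA4, and reads in the shared stretch were not counted. EFNA1 (-0.11) and EFNA5 (-0.11) did not pass with all libraries and passed without shCdGAP replicate 2, at -0.26 and -0.16. EFNA2 had no read in any library.

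EFNB2 lies on the long arm of chromosome 13 among genes that were also lower in shCdGAP. Of the 16 tested neighbours (average log2 CPM of 3 or more) within 5 Mb of it, 15 were lower, with log2 fold changes from -2.83 to 0.11 and a median of -1.57. EFNB2 differed from that median by -0.08, less than its own SE, and 5 of the neighbours fell further. Over the whole chromosome, 154 of 165 such genes were lower, with a median of -1.30. No other guidance gene tested had neighbours with an absolute median above 0.3 in the direction of its own change except SEMA6A, whose 20 neighbours had a median of 0.31. EPHA2 and EPHA3, which fell, had neighbours with medians of 0.33 (51 genes) and 0.30 (10 genes).

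**Figure D2:**
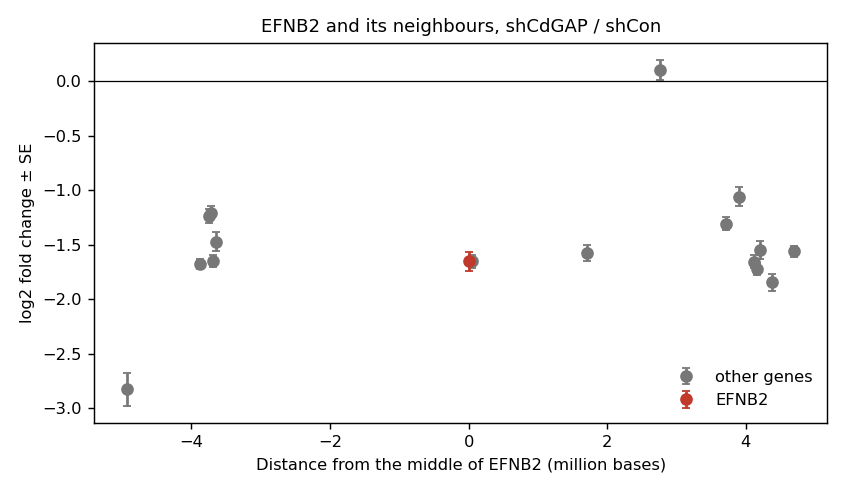
Log2 fold change with its SE (vertical axis) of EFNB2 and the 16 genes around it, by distance from the middle of EFNB2 in Mb. EFNB2 (red) sits among its neighbours at -1.65, and 1 neighbour lies above 0.

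The semaphorins that were tested ranged from -2.62 to 4.58 on the log2 scale. Of the 15 tested, 6 were higher and 5 lower, 73.3% in all against 46.2% of all genes tested. By more than 2-fold, 4 changed in each direction, against 8.56% of all genes higher and 4.19% lower. Within the secreted class 3, 2 genes fell by more than 2-fold. SEMA3F (chromosome 3 from 50155045 to 50189075), a repellent ligand that signals through NRP2, stood at 3.67, 4.80 and 3.84 CPM in shCdGAP and at 24.1, 25.9 and 26.1 CPM in shCon. Its shCdGAP level was 16.3% of the shCon level by the fit, a log2 fold change of -2.62 (SE 0.1003, edgeR adjusted p = 1.20e-07). SEMA3C (chromosome 7 from 80742538 to 80922359), which binds both neuropilins, stood at 25.9, 33.1 and 25.7 CPM in shCdGAP and at 81.7, 83.2 and 85.7 CPM in shCon. Its groups were also far apart, with a log2 fold change of -1.56 (SE 0.0927, edgeR adjusted p = 2.85e-06).

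The stretches just upstream of these genes are shown because they are the lower semaphorins with an average log2 CPM of 3 or more and a start site near the deposited 5′ end. They were taken from RefSeq promoters on GRCh38.p14 and belong to the transcript start nearest the deposited 5′ end, of 3 starts listed for SEMA3F and 2 for SEMA3C. That of SEMA3F stops at the base before the deposited gene, 13 bases short of the RefSeq start. Capitals mark the E-box CAGGTG, to which Snail and ZEB factors bind, and the GC box GGGCGG, to which SP1 binds, each on either strand. The SEMA3F stretch (chr3:50154808-50155044, plus strand, 237 bases) held 31 CpG, 1 E-box and 12 GC boxes counted with overlaps, and that of SEMA3C (chr7:80922390-80922639, minus strand, 250 bases) held 2 CpG and neither motif.
SEMA3F: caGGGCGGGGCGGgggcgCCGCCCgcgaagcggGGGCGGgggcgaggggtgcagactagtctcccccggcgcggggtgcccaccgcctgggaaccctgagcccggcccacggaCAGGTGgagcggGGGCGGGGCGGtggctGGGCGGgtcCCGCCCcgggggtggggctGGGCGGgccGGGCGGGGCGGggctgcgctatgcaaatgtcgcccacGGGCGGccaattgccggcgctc
SEMA3C: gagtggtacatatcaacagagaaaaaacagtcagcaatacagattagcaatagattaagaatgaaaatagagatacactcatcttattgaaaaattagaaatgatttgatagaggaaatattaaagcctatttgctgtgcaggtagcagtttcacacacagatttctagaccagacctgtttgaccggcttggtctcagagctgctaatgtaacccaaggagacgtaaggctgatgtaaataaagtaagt

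SEMA3B (chromosome 3 from 50267558 to 50277546), a secreted ligand known as a tumour suppressor in lung, moved the other way. It stood at 6.46, 10.6 and 6.60 CPM in shCdGAP and at 3.00, 3.13 and 3.90 CPM in shCon, with replicate 2 the highest shCdGAP library. The log2 fold change of 1.25 (SE 0.213, edgeR adjusted p = 0.00116) was 0.97 without replicate 2, still past the test but under 2-fold. SEMA3E, a ligand that binds PLXND1 without a neuropilin, rose by 0.44, while SEMA3A (0.11) and SEMA3D (-0.11) did not pass.

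Of the membrane-bound semaphorins, the largest change was that of SEMA6A (chromosome 5 from 116443616 to 116574934), a transmembrane ligand of A-type plexins. It had 355, 195 and 250 reads in shCdGAP and 7, 17 and 9 in shCon. The groups did not overlap, and the shCdGAP libraries spread 1.96-fold in CPM, with replicate 2 the lowest. The log2 fold change was 4.58 (SE 0.367, edgeR adjusted p = 1.76e-05), and 4.81 without replicate 2. SEMA6B (chromosome 19 from 4542593 to 4559808), of the same class, had 5, 23 and 5 reads in shCdGAP and 44, 36 and 29 in shCon. Its log2 fold change of -1.74 (SE 0.435, edgeR adjusted p = 0.00788) rested on few reads. It was lost when any library other than shCdGAP replicate 2 was left out, with an adjusted p of up to 0.0315 by edgeR, and was -2.78 without that library. SEMA6C (0.03) did not pass.

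SEMA7A (chromosome 15 from 74409289 to 74434467), which is anchored by a lipid and binds PLXNC1 and integrins, stood at 108, 107 and 109 CPM in shCdGAP and at 41.3, 45.6 and 42.2 CPM in shCon. The libraries within a group were nearly level, and the log2 fold change was 1.33 (SE 0.0455, edgeR adjusted p = 6.53e-08). SEMA4G (chromosome 10 from 100969518 to 100985871), a ligand of PLXNB2, had 162, 232 and 131 reads in shCdGAP and 29, 33 and 35 in shCon, a log2 fold change of 2.39 (SE 0.205, edgeR adjusted p = 1.36e-05). SEMA5A (chromosome 5 from 9035026 to 9546075), a ligand with thrombospondin repeats, had 23, 46 and 22 reads in shCdGAP and 137, 125 and 90 in shCon, a log2 fold change of -1.97 (SE 0.222, edgeR adjusted p = 7.42e-05). Neither gene had overlapping groups, and both were among the less abundant semaphorins.

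SEMA4B, the semaphorin with the highest level per length, stood at 181, 244 and 176 CPM in shCdGAP and at 157, 171 and 162 CPM in shCon. Every shCdGAP library was higher, but the log2 fold change of 0.29 did not pass (SE 0.127, edgeR adjusted p = 0.0913), and without replicate 2 it was 0.11 and passed. SEMA4F rose by 0.36 and SEMA4C, a ligand of PLXNB2, fell by 0.48 on the log2 scale, both past the test. SEMA4A and SEMA4D had at most 2 reads in any library, and SEMA6D had 6, 4 and 8 reads in shCdGAP and 2, 2 and 0 in shCon, groups that did not overlap. These 3 genes had too few reads for the test.

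**Figure D3:**
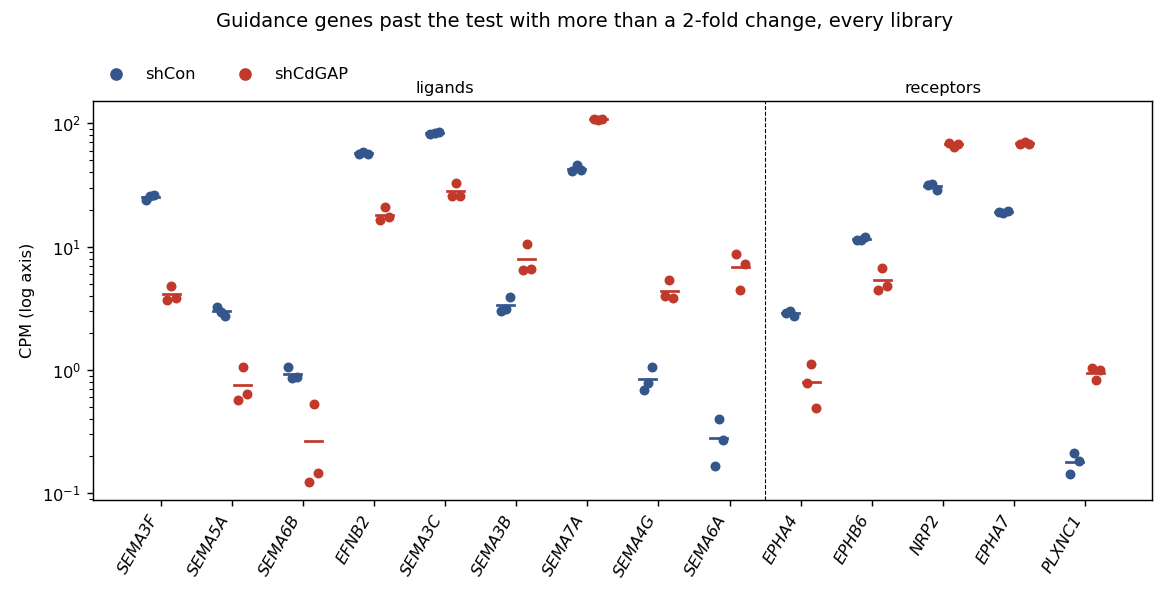
Level in CPM (vertical axis, logarithmic) of the 14 guidance genes past the test with a change above 2-fold, 9 ligands and 5 receptors. Each point is a library and each bar a group mean over 3 libraries; no gene's groups overlap. The middle of the 3 red points is shCdGAP replicate 2.

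Of the 9 Eph receptors tested, 3 were higher and 5 lower, 88.9% in all against 46.2% of all genes tested. EPHA7 (chromosome 6 from 93240020 to 93419547), an A-type receptor best known from the developing brain, rose most. It stood at 68.1, 71.3 and 67.9 CPM in shCdGAP and at 19.0, 18.6 and 19.3 CPM in shCon, so that the spread within each group was small beside the gap. The log2 fold change was 1.86 (SE 0.0438, edgeR adjusted p = 1.32e-08). Its RefSeq promoter stretch (chr6:93419560-93419809, minus strand, 250 bases) is shown as the counterpart of those of SEMA3F and SEMA3C for a gene that rose, with the same motifs in capitals. It held 19 CpG, 4 GC boxes and no E-box.
EPHA7: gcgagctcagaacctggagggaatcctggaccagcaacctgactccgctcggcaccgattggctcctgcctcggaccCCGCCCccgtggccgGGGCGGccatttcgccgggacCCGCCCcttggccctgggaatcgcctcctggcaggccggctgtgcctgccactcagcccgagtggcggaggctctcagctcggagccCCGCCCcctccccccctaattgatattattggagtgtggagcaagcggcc

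The E-box was present in 8 of the 42 guidance genes with an entry (19.0%) and in 17.5% of all 35116 promoters, over 250 bases. The GC box was present in 35 of the 42 (83.3%), against 42.6% of all promoters, and the median CpG number was 17.5 against 11. Each guidance gene was taken with 1 start, the nearest to the deposited 5′ end, while the 35116 promoters hold several starts for some genes. These shares are therefore of unlike sets. Some starts of guidance genes also lie far from that end, such as that of EPHB1 at 197459 bases. Of the genes past 2-fold, the GC box was found in 6 of 6 higher genes and 5 of 6 lower genes, and the E-box in 1 of 6 and 2 of 6.

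EPHA2, the receptor with the highest level per length of the family and frequently abundant in carcinoma, stood at 184, 180 and 183 CPM in shCdGAP and at 261, 273 and 265 CPM in shCon. Its fall was small beside that of EPHA4 but uniform, with a log2 fold change of -0.55 (SE 0.0329, edgeR adjusted p = 1.61e-06). EPHA4 (chromosome 2 from 221418027 to 221574202), which binds both A- and B-type ephrins, had 32, 49 and 17 reads in shCdGAP and 122, 128 and 90 in shCon, a log2 fold change of -1.82 (SE 0.235, edgeR adjusted p = 0.000172). EPHB6 (chromosome 7 from 142855061 to 142871094), a receptor without kinase activity, stood at 4.49, 6.68 and 4.80 CPM in shCdGAP and at 11.4, 11.2 and 11.96 CPM in shCon. Its groups did not overlap, with a log2 fold change of -1.11 (SE 0.140, edgeR adjusted p = 0.000154).

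EPHA3 fell by 0.49 and EPHB4, the receptor of EFNB2, fell by 0.42 on the log2 scale, both past the test. EPHB2 rose by 0.44. EPHA5 rose by 0.31 (edgeR adjusted p = 0.00816), a call that was lost on removal of any library other than shCdGAP replicate 2, with an adjusted p of up to 0.0471. EPHA1 had 229, 530 and 172 reads in shCdGAP and 328, 345 and 254 in shCon, so that replicate 2 lay above and the other 2 libraries below every shCon library. With all libraries its log2 fold change was -0.04 (edgeR adjusted p = 0.926), and without replicate 2 it was -0.57 (edgeR adjusted p = 1.29e-06). EPHB1 had at most 6 reads in any library. EPHB3 had 2, 15 and 3 reads in shCdGAP and 5, 4 and 1 in shCon, and neither was tested.

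All 8 plexins and both neuropilins were tested, and 80% of them passed, against 46.2% of all genes tested. PLXNC1 (chromosome 12 from 94148723 to 94307675), the receptor of SEMA7A, had 42, 36 and 34 reads in shCdGAP and 6, 9 and 6 in shCon. It remained a rare transcript, with a log2 fold change of 2.38 (SE 0.259, edgeR adjusted p = 5.90e-05). PLXNA3 rose by 0.87 and PLXNB3, a receptor of SEMA5A, by 0.58, both past the test. The gene ENSG00000184343 shares 20.4% of the exon length of PLXNB3, where reads were not counted.

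Another 4 plexins fell, each by less than 2-fold. PLXNA1, the plexin with the highest level per length, stood at 163, 189 and 159 CPM in shCdGAP and at 220, 215 and 209 CPM in shCon, a log2 fold change of -0.33 (SE 0.0621, edgeR adjusted p = 0.00167). PLXNB1 fell by 0.31, PLXNB2 by 0.48 and PLXND1 by 0.44 on the log2 scale, all past the test. PLXNA2 (-0.31) did not pass, and its groups overlapped.

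The neuropilins parted. NRP2 (chromosome 2 from 205681990 to 205798133), the co-receptor preferred by SEMA3F, stood at 69.7, 64.5 and 68.4 CPM in shCdGAP and at 31.6, 32.1 and 28.8 CPM in shCon. Each shCdGAP library was above 2 times the highest shCon library, with a log2 fold change of 1.13 (SE 0.0544, edgeR adjusted p = 4.15e-07). NRP1, the more abundant of the pair, stood at 299, 305 and 284 CPM in shCdGAP and at 274, 283 and 271 CPM in shCon. The groups did not overlap, but the log2 fold change of 0.10 (SE 0.0385, edgeR adjusted p = 0.0454) did not pass.

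Levels were then compared between genes as CPM per kilobase of merged exons (RPKM), and each gene was expressed as a share of its family, the members outside the list included. The summed level of the Eph receptors was 116 ± 0.862 RPKM in shCdGAP and 140 ± 1.93 RPKM in shCon (SD, n = 3 each). Within that sum, EPHA2 took 37.7% ± 0.409 in shCdGAP and 45.8% ± 0.361 in shCon, and remained the leading receptor. EPHB2 took 17.5% ± 1.65 against 10.7% ± 0.119, and EPHA7 7.97% ± 0.239 against 1.82% ± 0.0510 (SD, n = 3 each). EPHB4, second in rank in both groups, took 23.1% against 25.8%.

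The summed level of the ephrins was 50.8 ± 10.9 RPKM in shCdGAP and 69.7 ± 0.625 in shCon (SD, n = 3 each), and the wide spread came from replicate 2, at 63.3 RPKM against 45.0 and 44.0. EFNB1 took 39.96% ± 5.58 of the ephrin sum in shCdGAP and 51.0% ± 0.720 in shCon, and EFNB2 8.13% ± 0.685 against 18.4% ± 0.295. The A-type EFNA4 took 22.0% ± 3.15 against 11.7% ± 0.103 and so replaced EFNB2 in second place.

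For the semaphorins the sums were 75.7 ± 6.70 RPKM in shCdGAP and 66.4 ± 1.92 in shCon. Replicate 2 of shCdGAP summed to 83.4 RPKM, against 72.2 and 71.5 in replicates 1 and 3. SEMA4B had the highest mean share in both groups, with 37.5% ± 3.67 and 35.2% ± 0.590 of the sum, and its groups overlapped. In shCdGAP replicates 1, 2 and 3 it took 35.7%, 41.7% and 35.1%, against 34.9%, 29.8% and 35.4% for SEMA7A. Its lead in shCdGAP was thus widest in replicate 2, and SEMA7A stood higher in replicate 3. By mean share, second place passed from SEMA3C (5.93% ± 0.349 in shCdGAP, 20.1% ± 0.549 in shCon) to SEMA7A (33.3% ± 3.09 in shCdGAP, 15.03% ± 0.437 in shCon). SEMA3F fell from 7.91% ± 0.186 to 1.12% ± 0.0689 of the sum. SEMA6A, with the largest fold change, took 0.842% ± 0.317 of the sum in shCdGAP.

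The plexins summed to 42.2 ± 1.54 RPKM in shCdGAP and 48.2 ± 0.494 in shCon, with PLXNA1 first (36.9% and 40.7%) and PLXNB2 second (24.1% and 29.4%) in both groups. PLXNA3 took 15.3% ± 1.38 in shCdGAP and 7.34% ± 0.636 in shCon. The neuropilins summed to 30.5 ± 0.837 and 26.1 ± 0.649 RPKM, of which NRP2 took 15.9% ± 0.888 in shCdGAP and 8.48% ± 0.335 in shCon.

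**Figure D4:**
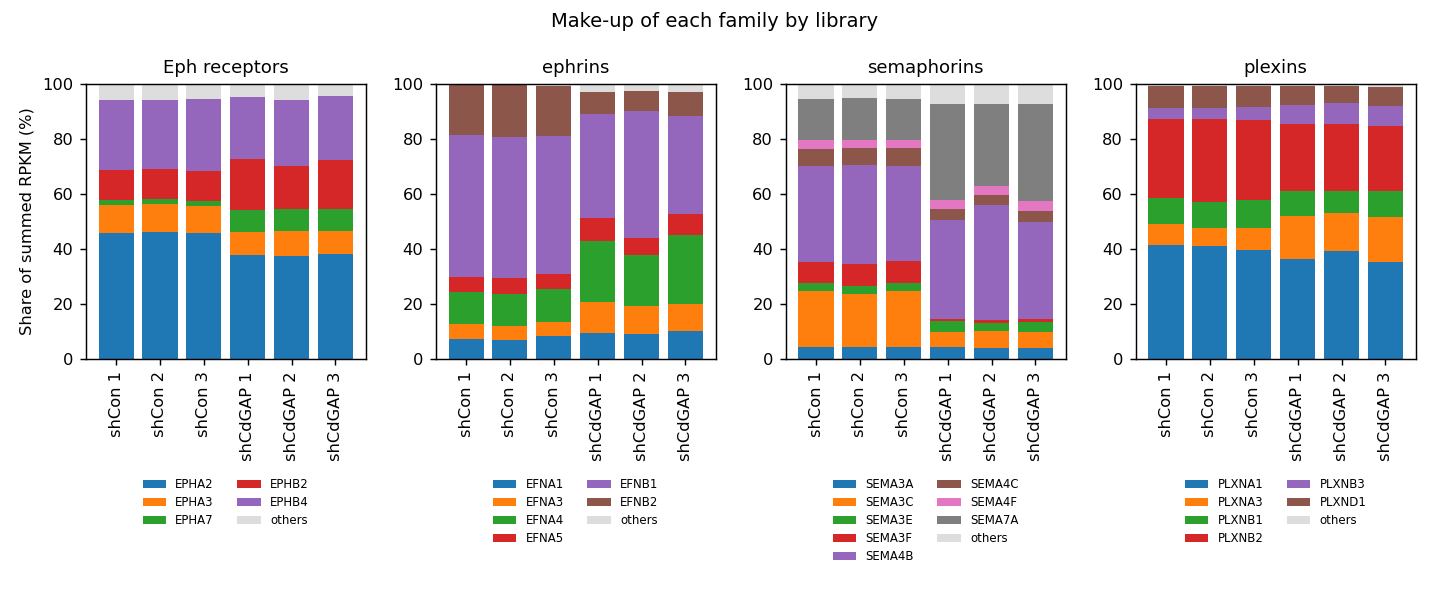
Share of each family's summed RPKM (vertical axis, percent) in each of the 6 libraries, for genes that reach 3% in any library, with all others in grey. SEMA3C and SEMA3F shrink and SEMA7A widens in all 3 shCdGAP libraries, EFNB2 shrinks beside EFNA4, and EPHA7 and EPHB2 widen beside EPHA2.

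Ligands and the receptors they are known to bind can be set side by side. These pairings were written down with the values in view and no pair was tested as a pair. SEMA7A (1.33) and PLXNC1 (2.38) were both higher. SEMA3F (-2.62) was lower while NRP2 (1.13) was higher, and SEMA5A (-1.97) was lower while PLXNB3 (0.58) was higher. EFNB2 (-1.65), which lay close to the median of its neighbours on chromosome 13, and EPHB4 (-0.42) were both lower. SEMA3E (0.44) was higher while PLXND1 (-0.44) was lower. PLXNB2 (-0.48) was lower, with SEMA4G (2.39) higher and SEMA4C (-0.48) lower. SEMA3C (-1.56) was lower while NRP2 was higher and NRP1 (0.10) did not pass. Not every known pair is listed.

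Replicate 2 of shCdGAP altered the size of several changes. Leaving it out moved SEMA6B, EPHA1, SEMA5A, EFNB1 and EPHA4 towards lower values, and SEMA5A and EPHA4 then stood at -2.32 and -2.15. The genes EPHA1, EFNA1, EFNA5, EFNB1 and SEMA4B passed the test without it. No guidance gene lost its call, and the number past 2-fold became 6 higher and 8 lower, as SEMA3B went under the limit and EFNB1 over it. The values of SEMA7A, NRP2, EPHA7 and EPHA2 were nearly the same with and without it.

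**Figure D5:**
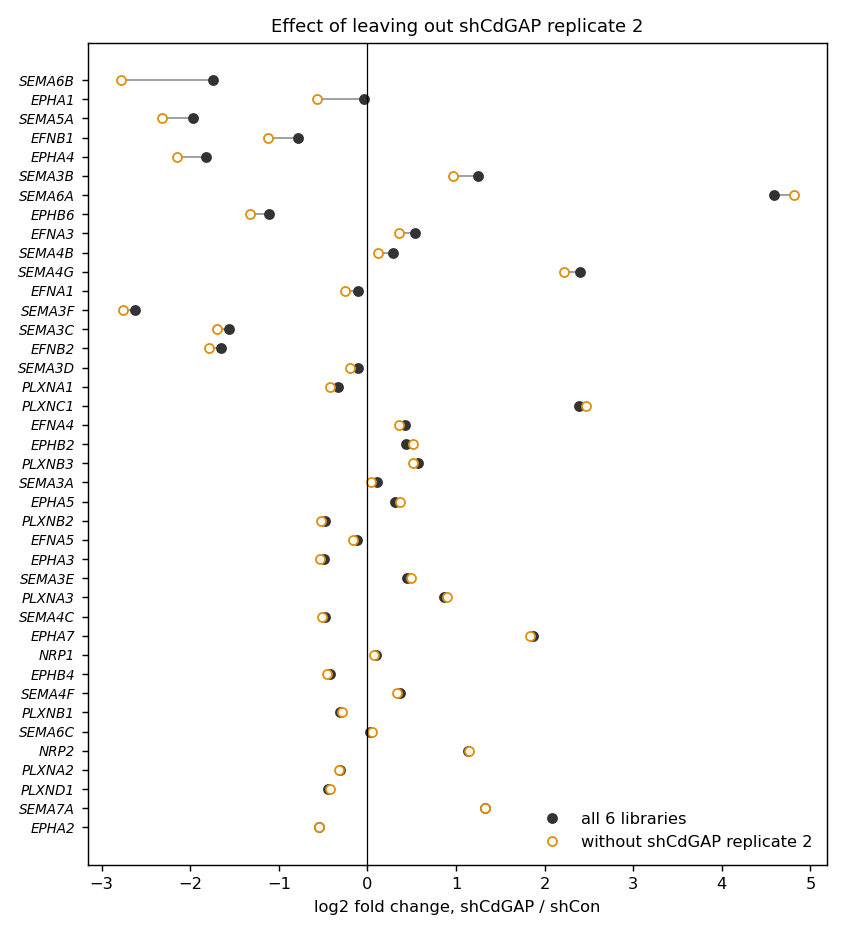
Log2 fold change of the 40 guidance genes tested (horizontal axis) with all 6 libraries (filled) and without shCdGAP replicate 2 (open), sorted by the size of the shift. The largest shifts are those of SEMA6B, from -1.74 to -2.78, and EPHA1, from -0.04 to -0.57.

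The same families have 7 members outside the list, of which 4 were tested. All 4 passed and changed by more than 2-fold, against 46.2% and 12.8% of all genes tested. EPHA6 entered the test through its shCon reads and EPHA10 through its shCdGAP reads. For these genes a large change went with being tested, so that the shares are no measure of the family. EPHA6, an Eph receptor, had 2, 8 and 1 reads in shCdGAP and 357, 328 and 268 in shCon. Replicates 1 and 3 of shCdGAP lay under the floor of 3 reads, so that the size of the fall is uncertain, with a log2 fold change of -6.41 (SE 0.280, edgeR adjusted p = 2.46e-07) and -7.56 without replicate 2. EPHA10, a receptor without kinase activity, had 51, 64 and 48 reads against 7, 7 and 9, a log2 fold change of 2.78. EFNB3, the remaining B-type ephrin, rose by 1.85, opposite to EFNB2, and the secreted SEMA3G rose by 1.51. EPHA8 and SEMA5B had no read, and PLXNA4 had at most 5.

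Genes that act downstream of these receptors passed at a share close to that of all genes. Of 87 pathway genes tested out of 94, 27 were higher and 19 lower, 52.9% in all against 46.2% of all genes. By more than 2-fold, 7 were higher and 2 lower, against 8.56% and 4.19% of all genes. Without shCdGAP replicate 2 the numbers were 38 higher and 31 lower, in a fit that called 60% of all genes. In Eph and ephrin signalling, 12 of 43 tested were higher and 10 lower, 51.2% in all. MMP14, a membrane metalloproteinase, rose by 1.42, RGS3, a regulator of G-protein signalling, by 1.19, and CHN2, which encodes the Rac-specific β2-chimaerin, by 1.04 (1.01 and 0.98 for the latter 2 without shCdGAP replicate 2). The lowest were GRIP1, a scaffold for B-type ephrins (-0.96), VAV2, an exchange factor for small GTPases (-0.72), and the kinase ABL1 (-0.71). VAV2 and ABL1 lie on chromosome 9, where their neighbours had medians of -0.59 and -0.58, and RGS3 rose on the same chromosome among neighbours with a median of -0.57.

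In semaphorin and plexin signalling, 13 of 34 tested were higher and 6 lower, 55.9% in all against 46.2% of all genes. MRAS, a Ras-family GTPase, had 445, 464 and 357 reads in shCdGAP and 37, 35 and 32 in shCon, a log2 fold change of 3.58 (SE 0.108, edgeR adjusted p = 3.63e-08). ITGA1, the integrin α1 chain, rose by 2.58 and had 707, 1465 and 623 reads in shCdGAP, with 2.19 without replicate 2. DPYSL4, of the collapsin response mediator family, rose by 1.37, and MICAL1, an actin-oxidising enzyme that binds plexins, by 1.28. FARP1, an exchange factor that binds A-type plexins, fell by 2.04 on the log2 scale and lies on chromosome 13, where all 22 of its neighbours were lower, with a median of -1.63. SH3BP1, a RhoGAP for Rac1 that binds plexins, fell by 1.06, and ADAM17, a protease that sheds surface proteins, by 0.46.

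Of 10 cytoskeletal effectors that both pathways share, 2 were higher and 3 lower, 50% in all against 46.2% of all genes. None changed by more than 2-fold. The Rac1 and Cdc42 effector kinase PAK1 rose by 0.98 and LIMK1, which phosphorylates cofilin, by 0.34. ROCK2, an effector of RhoA, fell by 0.77, PAK2 by 0.38 and RAC1 itself by 0.14 (edgeR adjusted p = 0.00969, from 3.76e-08 to 0.0353 over its alternatives), which was past the threshold in 4 of 14 alternatives.

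Markers of other cell types were read beside these genes. The 6 endothelial markers summed to 45.7 to 50.8 CPM in shCdGAP and 16.9 to 17.2 in shCon, mostly from ROBO4. TIE1 rose by 1.47, PECAM1 (-0.57) did not pass with all libraries and passed at -1.14 without shCdGAP replicate 2, CDH5 had 2, 3 and 2 reads against 9, 10 and 7, and VWF and EMCN had at most 1 read. The 6 fibroblast markers summed to 341 to 362 CPM against 302 to 309, most of it COL1A2 at 279 and 286 CPM, which did not pass (-0.04). COL1A1, LUM, PDGFRA and PDGFRB were higher, and DCN had at most 5 reads. The 6 neuronal markers summed to 455 to 474 CPM against 263 to 269, mostly NEFL. NEFL (0.78), SYT1 (1.26) and MAP2 (2.04) were higher, all past the test, while RBFOX3, SNAP25 and STMN2 had at most 2 reads. Leukocyte markers summed to 0.247 to 0.367 CPM against 0.121 to 0.262, with CD3E at 0 in every library. The part of these genes in the results above was not tested.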

How the data were processed

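RNA-seq data from 3 shCdGAP and 3 shCon samples of PC-3 cells were used. The authors deposited raw read counts per gene, with no normalization, in 1 table per sample. By the methods and the submitters' notes, reads were aligned to GRCh38 with STAR 2.5.1b and counted with featureCounts 1.4.6, while the file headers name featureCounts 1.6.0, Ensembl 77 and strand-specific counting of read pairs. The methods name a single-read kit, so that a count may be of reads or of read pairs. Under these settings a read was left out when it aligned to several places or fell where genes of the same strand overlap. The study's own differential expression used DESeq2 1.12.3.

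The 46 genes, the other gene lists and the marker lists were chosen with earlier results of these data known. Groups and replicate numbers were taken from the labels. Total counts per library ran from 33182796 to 43154039, which limits the precision of genes with few reads. A library with 3 reads or fewer of a gene was taken as at or under the floor, which covers counting error only. Every pair of libraries in a group differed by more than sampling noise, and each was counted as a sample. Separate cultures are stated only as independent samples, so that p-values measure the spread between these samples.

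Differential expression was computed with edgeR 4.0.16 in R 4.3.3, using filterByExpr, TMM factors (0.987 to 1.01) and the robust quasi-likelihood F test without pairing. P-values were adjusted by the Benjamini-Hochberg method over the 16439 genes tested, with calls at an adjusted p under 0.01. The SE was obtained as the size of the log2 fold change over the square root of F. CPM was scaled by TMM-adjusted library size, and RPKM divided it by the exon length in the tables. With 3 libraries a side, the smallest two-sided p of an exact permutation test is 0.1, and such tests were not used for genes. The procedure was tested on counts simulated from the means and dispersions of these libraries, with 16007 of 16203 genes unchanged. At an adjusted p under 0.01 it called 54.4%, 75% and 93.8% of true absolute log2 changes of 0.5, 1 and 2. Of the unchanged genes it called 0.05%. The simulation changed few genes, whereas 46.2% were called in the data, and it held no library that stood apart like shCdGAP replicate 2. These rates therefore cannot be taken over to the calls reported here.

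Alternatives were DESeq2 1.42.0, upper-quartile and library-size scaling, no filter or at least 10 reads in every library, chromosome 13 left out of the scaling, an adjusted p under 0.05, a replicate block, and the removal of each library. Values per library are given for genes past 2-fold, for the gene with the highest RPKM of each family, and for genes whose shCdGAP libraries spread more than 1.5-fold at a mean of at least 1 CPM. From each list of other pathway genes, the 3 highest, the 3 lowest and every gene past 2-fold are named. Neighbour medians are printed above 0.3 in size. RefSeq promoters are shown for genes past 2-fold with an average log2 CPM of 3 or more and a start within 50 bases of the deposited 5′ end, up to that end. This last rule was settled after the values were seen. SEMA6A, SEMA6B, SEMA3A and NRP1 had no matching entry. Some marker genes are not reported here. Symbols were matched for 56105 of 64253 identifiers.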

Additional observations from a re-analysis of the deposited data

How the results depend on the processing

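Of the 40 guidance genes tested, 30 kept their direction and their side of the threshold under every alternative run. DESeq2, upper-quartile and library-size scaling, both filters on low counts and chromosome 13 left out of the scaling changed no call of a guidance gene that they could test. With 1 library removed at a time (leave-one-out), 7 to 9 ligands were higher and 5 to 9 lower, 6 to 7 receptors were higher and 9 to 10 lower, and 6 to 7 guidance genes were higher and 6 to 8 lower past 2-fold. Pathway genes ranged from 14 to 31 lower (19 with all libraries), the highest without shCdGAP replicate 2. The fit without that library called 60% of all genes tested in it. The single lower gene among other guidance families, NTN5, became 0 genes with DESeq2 (2 at an unadjusted p under 0.05) and 0 with at least 10 reads in every library (also 0 at an unadjusted p under 0.05), 2 with no filter, and 0 to 2 with a library left out. EPHA1 turned in sign, from -0.57 to 0.17, and SEMA6C from -0.10 to 0.10, when single libraries were left out, and neither passed the test in a turned direction. ARHGAP31 stayed between -1.17 and -1.12. The cause of these shifts was not tested.

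The deviations of same-numbered libraries correlated weakly, at 0.032 to 0.039, against -0.054 to 0.016 for libraries of different numbers. The labels name no shared culture, and the main test took the samples as unpaired. With the replicate block, 8 ligands were higher and 5 lower, and 6 receptors were higher and 9 lower. EPHA5 and SEMA6B then lay beyond the threshold of 0.01, and no other guidance gene changed its call. The depth limits EPHB1, EPHB3, SEMA4A and SEMA4D, whose differences were not detectable at these read numbers.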

Other observations

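Other guidance families, the netrins, Slits, Robo and UNC5 receptors and related genes were counted in the same way. Of 31 genes, 17 were tested, and 10 were higher and 1 lower by edgeR's quasi-likelihood test with Benjamini-Hochberg adjustment, against 24.1% and 22.0% of all genes. By more than 2-fold, 7 were higher and 1 lower, against 8.56% and 4.19% of all genes. NTN4, a secreted netrin of basement membranes, had 8611, 8501 and 7318 reads in shCdGAP and 3046, 3128 and 2362 in shCon, a log2 fold change of 1.51 (SE 0.0440). NTNG1, a netrin-related protein anchored by a lipid, rose by 1.44 and its relative NTNG2 by 2.67, from 3, 4 and 0 reads to 14, 20 and 13 (edgeR adjusted p = 0.00201, and 0.0102 without shCon replicate 1, where it did not pass).

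Several receptors were higher. UNC5C, a netrin receptor, had 239, 160 and 198 reads in shCdGAP and 31, 20 and 24 in shCon, a log2 fold change of 2.98. ROBO4, a receptor known from endothelium, rose from 11.03 ± 0.143 to 43.5 ± 4.36 CPM (SD, n = 3 each). RTN4R, the Nogo receptor, rose by 2.00 and FLRT3, a membrane ligand of UNC5 receptors, by 1.98. NTN5 was the lower gene past the test, with 6, 8 and 11 reads in shCdGAP and 28, 17 and 24 in shCon, a log2 fold change of -1.47 (edgeR adjusted p = 0.00762, from 0.000333 to 0.0333 over its alternatives). DCC, a netrin receptor with too few reads for the test, had 1, 0 and 0 reads in shCdGAP and 8, 5 and 6 in shCon. UNC5D (0.11), NEO1 (0.61), RTN4RL1 (-0.25) and RTN4RL2 (0.66) did not pass. In shCdGAP, NEO1 had 368, 980 and 304 reads, RTN4RL2 353, 921 and 292, and RTN4RL1 205, 306 and 158. Without shCdGAP replicate 2, NEO1 stood at 0.0015 and RTN4RL2 at 0.075. RTN4RL1 then passed at -0.46 (edgeR adjusted p = 0.000139). DCC, UNC5D, NEO1, RTN4RL1 and RTN4RL2 were named after their values were seen.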
